A study of Oryctolagus cuniculus with 9 samples.

Results

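The epidermal growth factor (EGF) family of ligands and receptors was examined in rabbit urethral tissue. The 10 members were 7 ligands (EGF, HBEGF, AREG, EREG, TGFA, BTC and NRG1) and 3 receptors (EGFR, ERBB2 and ERBB3), chosen by name out of 28788 gene rows. Of these, 9 had a row under their own symbol, and ERBB3 was found through its RefSeq gene ID as LOC100008807. The series studied urethral repair with a hydrogel stent, and polyadenylated RNA was sequenced in 9 libraries, 3 each under the codes S9, S7 and S6. What each code stands for, and whether any of them is a control, is not stated in the labels. Nor is it stated that the 3 libraries of a code are separate animals, and the p-values therefore measure only the spread between these libraries. All groups share the tissue label, and a library is written as its code and number, such as S6_3.

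EGF family ligands are made as membrane-bound precursors and are released by proteases, chiefly ADAM17 and ADAM10. EGF, TGFA and AREG bind EGFR, HBEGF, BTC and EREG bind both EGFR and ERBB4, and NRG1 binds ERBB3 and ERBB4. ERBB2 has no known soluble ligand and acts as a partner of the other receptors, while ERBB3 has little kinase activity and signals through its partner. In stratified epithelia and urothelium this family is known for its part in the proliferation and migration of epithelial cells after injury, mostly from work in human and rodent tissue.

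Each library held 35127085 to 36832773 counts, so depth was close to equal. Epithelial genes were present in all libraries: the 10 basal and stratified epithelial markers with a row summed to 2602 to 4710 CPM (counts scaled to library size by the TMM method) in S9, 3526 to 4460 CPM in S7 and 2586 to 3558 CPM in S6, and none of them was at 0. Library S6_3 stood apart from the other S6 libraries. Relative to the mean of the 9 libraries, its shortest genes (at most 1057 bases) lay at a median of 0.45 and its longest (at least 8751 bases) at -0.29 on the log2 scale, against -0.14 to -0.12 and 0.12 to 0.27 in S9. The mitochondrially encoded gene ATP6 was at 21.5 to 25.9 CPM in a single library of every group (S9_4, S7_3, S6_4) and at 1946 to 3257 CPM in the other 6. For several members the S9 over S6 log2 fold change is given with and without S6_3. In tissue RNA, fewer cells of a type and less RNA per cell cannot be told apart.

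Per length, the receptors ERBB2 and EGFR stood far above all of the ligands. On the authors' FPKM scale (counts per length of the gene and depth of the library), the mean over the 9 libraries was 50.9 ± 14.5 for ERBB2 and 12.5 ± 4.43 for EGFR (SD, n = 9), and ERBB2 was above EGFR, and EGFR above TGFA, in 9 of 9 libraries. The ligands TGFA, BTC, EGF and HBEGF followed at 3.46 ± 1.15, 3.38 ± 2.13, 2.88 ± 1.21 and 2.77 ± 1.39 FPKM. These 4 levels differed by less than their spread between libraries, and BTC was above EGF in only 5 of 9 libraries and EGF above HBEGF in 4 of 9. ERBB3 was at 1.70 ± 0.749, NRG1 at 1.23 ± 0.440, EREG at 1.11 ± 0.628 and AREG at 0.891 ± 0.496 FPKM, and these neighbours were not separated beyond their spread either. Among all 17102 genes tested, 9.13% had a higher mean FPKM than ERBB2, 31.9% a higher one than EGFR and 57.4% to 75.4% a higher one than the ligands.

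**Figure D1:**
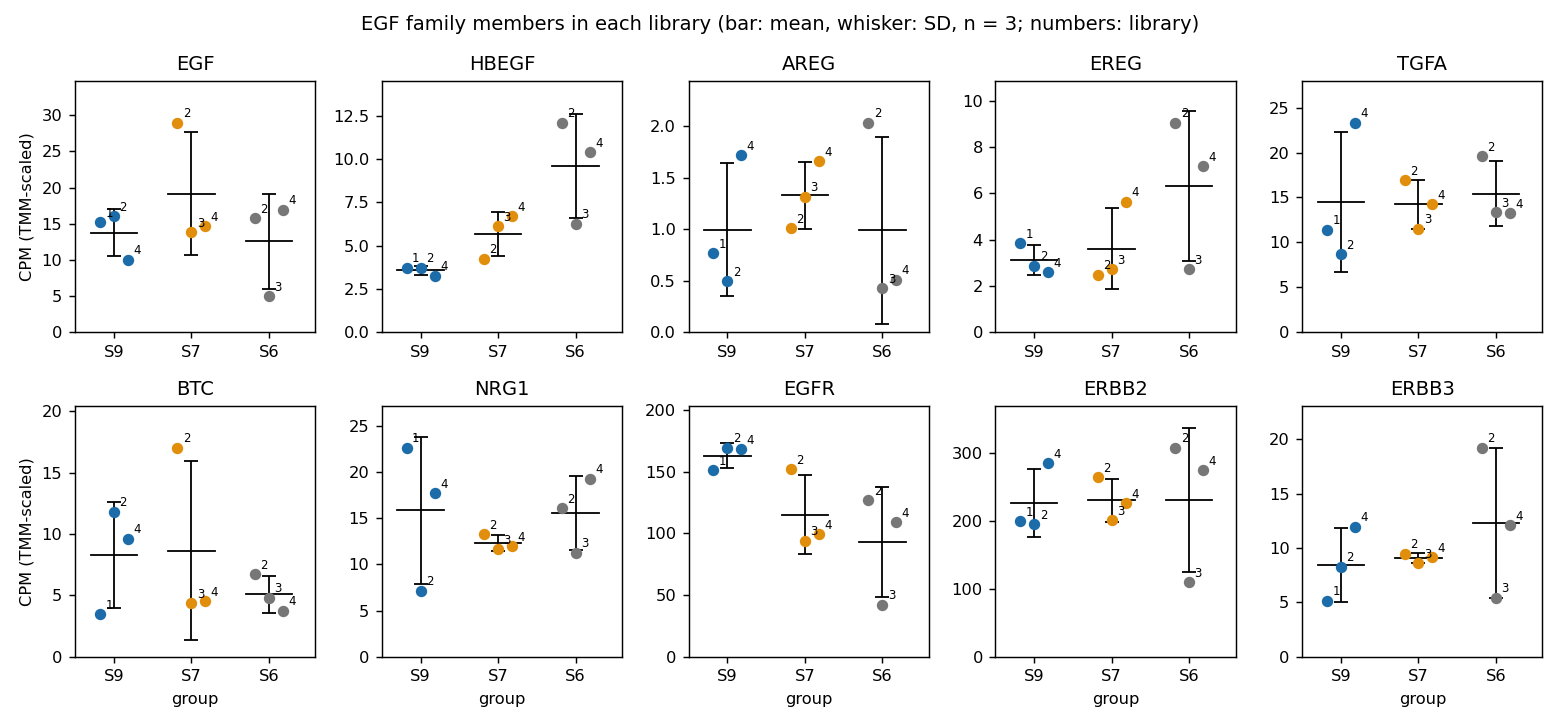
CPM (linear axis from 0, own scale in each panel) of the 10 members in each library, by group from S9 to S6; points are libraries with their number, the horizontal line is the mean and the whisker the SD (n = 3). HBEGF lies between 3.26 and 3.73 CPM in S9 and at 6.27 CPM or more in S6, EGFR is at 151 CPM or more in S9, and S6_3 is the lowest library for EGF, AREG, EGFR and ERBB2.

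HBEGF, a ligand that also exists as a membrane-anchored form, was lower in S9 than in S6. Its level was 3.73, 3.72 and 3.26 CPM in S9_1, S9_2 and S9_4, 4.25, 6.13 and 6.70 CPM in S7_2, S7_3 and S7_4, and 12.1, 6.27 and 10.4 CPM in S6_2, S6_3 and S6_4. Each S9 library was below each S7 and each S6 library, while S7 and S6 overlapped because S6_3 lay below S7_4. Between S9 and S6 the log2 fold change was -1.43 (SE 0.31, 95% interval -2.14 to -0.71, edgeR adjusted p = 0.0279), a 2.69-fold lower level in S9. Between S7 and S6 it was -0.75 (SE 0.31, interval -1.45 to -0.05, edgeR adjusted p = 0.263), and between S9 and S7 -0.67 (SE 0.31, interval -1.38 to 0.03, edgeR adjusted p = 0.545). The S9 against S6 call rested on small margins. It was lost, with the log2 fold change still between -1.46 and -1.22, when S6_2 (edgeR adjusted p = 0.0529), S6_4 (0.0838), S9_1 (0.103), S9_2 (0.0926) or S9_4 (0.0556) was left out. Without S6_3 the log2 fold change was -1.64 and the adjusted p was 0.0257, and among the 6 libraries high in ATP6 it was -1.30 with an adjusted p of 0.156.

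**Figure D2:**
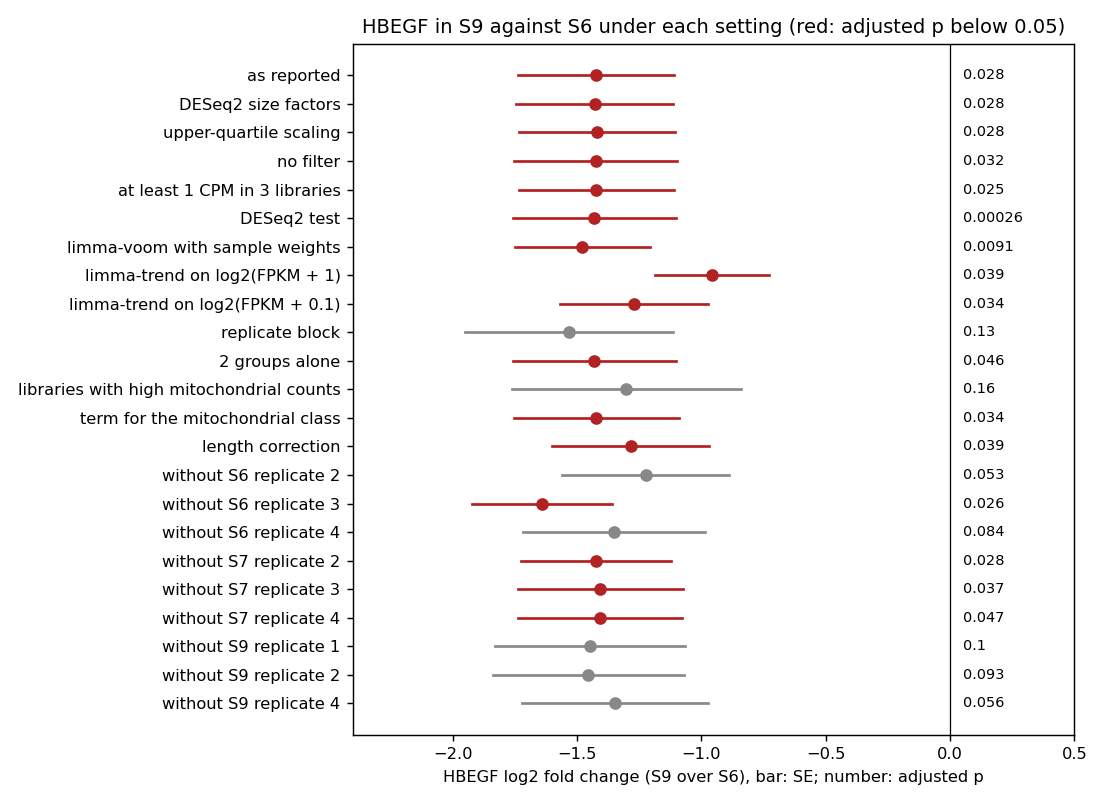
HBEGF log2 fold change of S9 over S6 (x axis) under the reported setting and each alternative (rows); the bar is the SE, the number at the right the adjusted p, and red marks an adjusted p below 0.05. The values lie between -1.64 and -0.96, and 7 of 22 alternatives have an adjusted p above 0.05.

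Most leukocyte markers moved in the same direction as HBEGF between S9 and S6. Over all genes, 6.34% were called lower in S9 than in S6. Of 4 mast cell markers tested 1 was called lower. Of 11 macrophage markers tested 6 were called lower in S9, and the list summed to 289 to 494 CPM in S9, 390.5 to 542 CPM in S7 and 683 to 1869 CPM in S6. Of 10 neutrophil markers tested 9 were called lower, with sums of 838 to 6444 CPM in S9, 5683 to 8116 CPM in S7 and 8922 to 15900 CPM in S6, and MMP8 was at 0 in all libraries. The tenth, LTF, which glandular epithelium also makes, went the other way without being called, at 313 to 5678 CPM in S9, 771 to 2763 CPM in S7 and 33.3 to 538 CPM in S6 (S9 over S6 log2 fold change 2.92, edgeR adjusted p = 0.125), and it is part of these sums. Of 12 T and B cell markers 8 were called lower, with sums of 920 to 1693 CPM in S9, 485.5 to 1585 CPM in S7 and 2230 to 3370 CPM in S6. Most of these sums came from JCHAIN, at 874 to 1652 CPM in S9 and 2040 to 3080 CPM in S6. JCHAIN was not called (edgeR adjusted p = 0.155). The neutrophil sums in S6 came mostly from S100A8, S100A9 and S100A12, with means of 1231, 3467 and 7520 CPM. Their means in S9 were 27.9, 74.5 and 468 CPM. The part of the leukocyte markers in the HBEGF difference was not tested.

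EREG and AREG, which with HBEGF are inducible ligands of EGFR, were low and variable. EREG was at 3.84, 2.88 and 2.59 CPM in S9, at 2.48, 2.72 and 5.64 CPM in S7 and at 9.04, 2.72 and 7.18 CPM in S6. The S9 libraries lay below S6_2 and S6_4 but on both sides of S6_3, so the groups overlapped. The log2 fold change of S9 over S6 was -1.03 (SE 0.50, interval -2.16 to 0.10, edgeR adjusted p = 0.198), and it was -1.37 (adjusted p = 0.0870) without S6_3. For S7 over S6 it was -0.81 (interval -1.93 to 0.32) and for S9 over S7 -0.22 (interval -1.34 to 0.90).

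AREG had only 14 to 75 counts per library. It was at 0.767, 0.493 and 1.72 CPM in S9, 1.01, 1.31 and 1.66 CPM in S7 and 2.03, 0.424 and 0.509 CPM in S6. The highest library of S9 and that of S6 stood well above the other libraries of their group: S9_4 had 65 counts (exact 95% Poisson interval 1.33 to 2.19 CPM, counting error only) and S6_2 had 75 (1.60 to 2.55 CPM), whereas S6_3 had 14 (0.232 to 0.711 CPM). The group means of 0.993 ± 0.644 CPM in S9, 1.33 ± 0.326 CPM in S7 and 0.988 ± 0.904 CPM in S6 (SD, n = 3) were not separated, and the interval of the S9 over S6 log2 fold change ran from -1.64 to 1.65. Its log2 fold change of 0.0067 moved to 1.08 without S6_2, to -0.34 without S6_3, to -0.30 without S6_4, to 0.33 without S9_2 and to -0.63 without S9_4, with no call in any of them. The data do not tell apart differences of AREG within that interval, and the smallest difference that could be called was not computed.

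The other ligands of EGFR did not pass the test in any comparison. EGF, the ligand that names the family, was at 15.2, 16.1 and 10 CPM in S9, at 28.9, 13.8 and 14.7 CPM in S7 and at 15.8, 4.99 and 16.9 CPM in S6. Apart from the high S7_2 and the low S6_3, all libraries lay between 10 and 16.9 CPM. TGFA was at 11.4, 8.65 and 23.3 CPM in S9, at 16.9, 11.5 and 14.2 CPM in S7 and at 19.6, 13.4 and 13.2 CPM in S6. The S9 libraries held both the highest and the lowest TGFA level of the series. BTC was at 3.49, 11.8 and 9.63 CPM in S9, at 17.1, 4.35 and 4.52 CPM in S7 and at 6.72, 4.81 and 3.75 CPM in S6, and 3 libraries, S7_2, S9_2 and S9_4, stood above the other 6. Between S9 and S6 the log2 fold change was 0.13 for EGF (interval -0.93 to 1.19), -0.09 for TGFA (-0.92 to 0.73) and 0.71 for BTC (-0.70 to 2.11). Left-out libraries turned the sign for EGF, at -0.23 without S6_3, and for TGFA, at 0.17 without S9_2.

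NRG1, the neuregulin that binds ERBB3 and ERBB4, was at 22.6, 7.15 and 17.7 CPM in S9, at 13.3, 11.6 and 11.95 CPM in S7 and at 16.1, 11.3 and 19.3 CPM in S6. Within S9 its highest library was thus 3.17-fold above its lowest, and these were also the highest and the lowest of all 9. The S9 over S6 log2 fold change was 0.03 (SE 0.38, interval -0.84 to 0.89, edgeR adjusted p = 0.972). NRG1 has a gene length of 11902 bases in the authors' FPKM values, more than 95% of tested genes, and with a correction for length the log2 fold change was -0.31. Schwann cells and nerve are a known source of NRG1 in other species. Of their 12 markers 3 were called higher and 1 lower in S9 than in S6, against 12.4% of all genes called in either direction. Whether called or not, 10 of the 12 markers had a log2 fold change above 0 and 2 had one below 0. The markers summed to 611 to 767 CPM in S9, 341 to 693 CPM in S7 and 362 to 553 CPM in S6. The part of these cells and of gene length in the NRG1 levels was not tested.

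EGFR, the receptor of the EGF-type ligands, was highest in S9. It was at 151, 170 and 168 CPM in S9, at 152, 94.0 and 99.2 CPM in S7 and at 127, 42.4 and 109 CPM in S6. Each S9 library was above each S6 library, and S7_2 lay within the range of S9. The S9 over S6 log2 fold change was 0.81 (SE 0.36, interval -0.01 to 1.63, edgeR adjusted p = 0.165), which did not pass. The low S6_3 carried much of it, and without S6_3 it was 0.48 (adjusted p = 0.196). The EGFR gene is long, at 10017 bases, and longer genes were in general higher in S9. With the correction for length the log2 fold change was 0.54 (edgeR adjusted p = 0.306). The part of gene length in the EGFR difference was not tested. Smooth muscle markers moved the same way, with 8 of 12 called higher in S9 than in S6, against 12.4% of all genes called in either direction. Their sums were 7088 to 13560 CPM in S9, 3592 to 11780 CPM in S7 and 2186 to 3859 CPM in S6. They were not alone: 4 of 12 endothelial, 3 of 12 Schwann cell and nerve and 1 of 12 fibroblast markers were called higher, and 1 nerve marker lower. Also called higher were 2 of 5 skeletal muscle and 1 of 5 adipocyte markers. Of 10 basal and stratified epithelial markers 1 (KRT15) was called higher, and of 10 urothelial markers 1 (KRT18), with 0 called lower. In these 2 epithelial lists 6 and 7 markers had a log2 fold change below 0. The part of these cell types in the EGFR level was not tested. For S7 over S6 the EGFR value was 0.31 (interval -0.51 to 1.13), which turned to -0.033 without S6_3, and for S9 over S7 it was 0.50 (interval -0.32 to 1.32).

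ERBB2, the shared partner receptor, was at 199, 195 and 285 CPM in S9, at 264, 201 and 226 CPM in S7 and at 308, 110 and 274 CPM in S6. Group means were 226.5 ± 50.6 CPM in S9, 230 ± 31.7 CPM in S7 and 231 ± 106 CPM in S6 (SD, n = 3). The means were nearly equal, but S6_3 was less than any other library, and the interval of the S9 over S6 log2 fold change ran from -0.81 to 0.76. ERBB3, the receptor for neuregulins, was at 5.16, 8.27 and 11.96 CPM in S9, at 9.46, 8.59 and 9.15 CPM in S7 and at 19.2, 5.45 and 12.1 CPM in S6. S9 and S6 overlapped widely, whereas the S7 libraries lay close together. Its S9 over S6 log2 fold change was -0.53 (SE 0.45, edgeR adjusted p = 0.455), at -0.88 without S6_3 and at -0.052 without S6_2. For S7 over S6 it was -0.43, and for S9 over S7 -0.10.

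Library S6_3 was low in most members at once. Against the mean of S6_2 and S6_4 on the log2 scale, it lay at -1.70 for EGF, -1.55 for EREG, -1.48 for ERBB3, -1.47 for EGFR, -1.40 for ERBB2, -1.18 for AREG, -0.83 for HBEGF and -0.64 for NRG1, but at -0.27 for TGFA and -0.06 for BTC. The median of all tested genes was 0.04, and 4.02% of them lay lower than EGF and 5.89% lower than ERBB2. The sum of the basal and stratified epithelial markers was also lowest there, at 2586 CPM against 3558 CPM in S6_2 and 3045 CPM in S6_4. The urothelial marker sum was at 2007 CPM there, against 3269 CPM in S6_2 and 3344 CPM in S6_4. It was lower still in S9_1 (1733 CPM) and S9_2 (1676 CPM). In these libraries EGFR was at 151 and 170 CPM and ERBB2 at 199 and 195 CPM, against 42.4 and 110 CPM in S6_3. ERBB3 was at 5.16 and 8.27 CPM in them, against 5.45 CPM in S6_3. The macrophage, neutrophil and fibroblast sums of S6_3 were the highest of the S6 libraries, at 1869, 15900 and 45280 CPM. The part of cell content and of the length pattern in these low levels was not tested.

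The balance between the receptors was also compared within each library. The ratio of EGFR to ERBB2, both per length, was 0.343, 0.393 and 0.267 in S9, 0.260, 0.211 and 0.199 in S7 and 0.187, 0.174 and 0.180 in S6. The S6 libraries agreed in this ratio although S6_3 held less of both receptors. The 3 groups did not overlap, and the nearest libraries of S9 and S7 differed only between 0.267 and 0.260. Of single genes, 35.5% did not overlap between S9 and S6, 21.2% between S7 and S6 and 17.2% between S9 and S7. The share of gene ratios with all 3 groups apart was not computed. EGFR made up 24.4 ± 3.57% of the summed FPKM of the 3 receptors in S9, 17.8 ± 2.14% in S7 and 14.8 ± 0.364% in S6 (SD, n = 3), while ERBB3 made up 2.09 ± 0.545%, 2.45 ± 0.264% and 3.29 ± 0.562% in S9, S7 and S6. This ratio was chosen after its values were seen and was not tested, and since EGFR is longer than ERBB2 (10017 against 4531 bases), the part of the length pattern in it was not tested.

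Among the 6 ligands of EGFR, HBEGF held a smaller share in S9. It made up 15.8%, 12.4% and 9.42% of their summed FPKM in S9, 9.12%, 23.0% and 21.2% in S7 and 26.8%, 27.4% and 30.9% in S6. The S6 libraries, S6_3 included, were above all libraries of the other groups. This share is built from the HBEGF values already given, so it is not a separate result. Of single genes, 35.5% did not overlap between S9 and S6 and 21.2% between S7 and S6. BTC ranged from 15.4% to 40.9% in S9, 14.9% to 38.0% in S7 and 11.6% to 21.9% in S6. The summed FPKM of the 6 ligands itself overlapped between groups, at 10.8 to 16.04 in S9, 11.05 to 20.5 in S7 and 9.48 to 20.1 in S6. These shares too were chosen after the values were seen and were not tested.

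**Figure D3:**
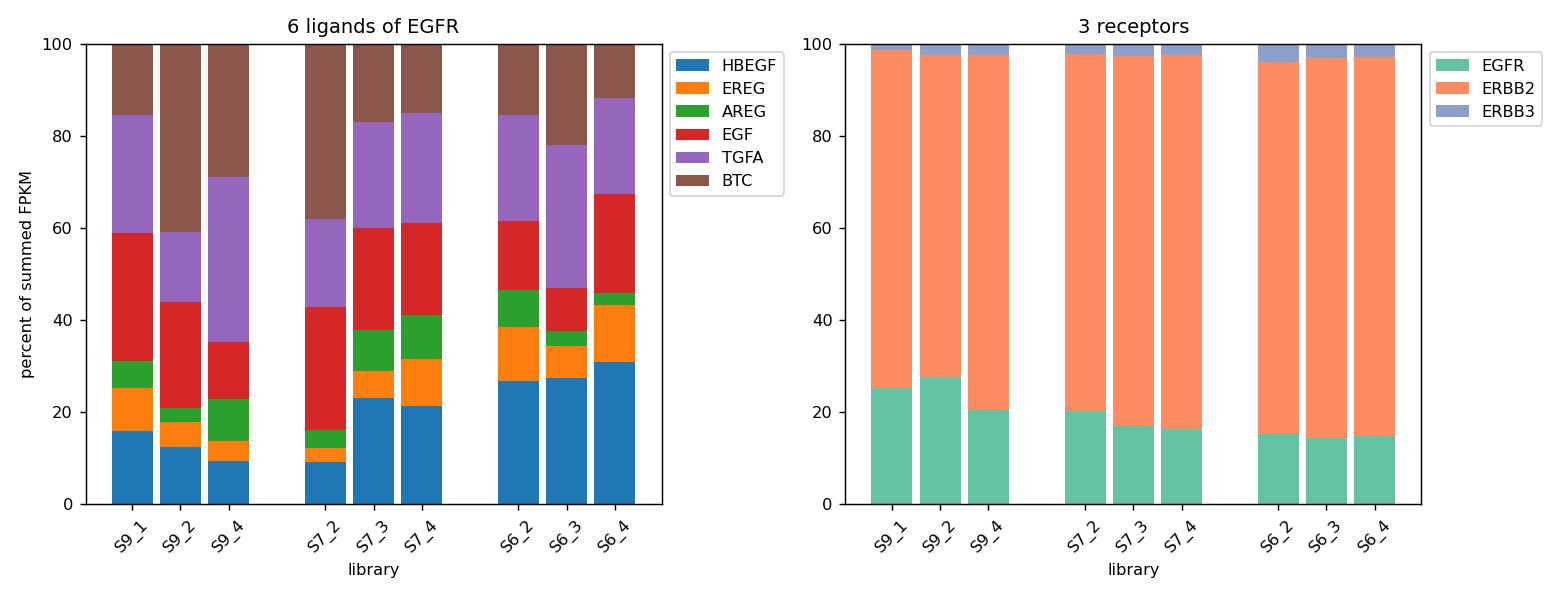
Share of each ligand in the summed FPKM of 6 EGFR ligands (left) and of each receptor in that of 3 receptors (right), in percent, one bar per library, with S9 at the left, then S7 and S6. HBEGF takes 26.8% to 30.9% in S6 and at most 15.8% in S9, and EGFR takes 14.4% to 15.1% of the receptors in S6 and 20.5% to 27.5% in S9.

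In all, 1 of the 10 members was called between S9 and S6 by edgeR's quasi-likelihood test at an adjusted p below 0.05, HBEGF, which was lower. All 10 had passed the filter on low counts, and the share of all genes called was 12.4%, or 6.34% counting lower genes only, so 1 of 10 was near the background. HBEGF and EGFR were the 2 members whose S9 and S6 libraries did not overlap, against 35.5% of all genes (17% lower, as HBEGF, and 18.6% higher, as EGFR). The median log2 fold change of the members was -0.01, the same as that of all tested genes. Between S7 and S6 edgeR called 0 of 10 members, against 0.111% of all genes; HBEGF alone had an unadjusted p below 0.05 (0.0381), against 17.1% of all genes, and DESeq2 and limma-voom also called 0. No member's S7 libraries lay apart from those of S6, against 21.2% of all genes. Between S9 and S7 the counts were 0 by edgeR, DESeq2 and limma-voom, with 0% of all genes called by edgeR, and 0 members had an unadjusted p below 0.05, against 9.21% of all genes. Only HBEGF lay apart there, lower in S9, against 17.2% of all genes and 8.81% in that direction. The 3 comparisons share libraries in pairs, so their values are not independent of each other.

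**Figure D4:**
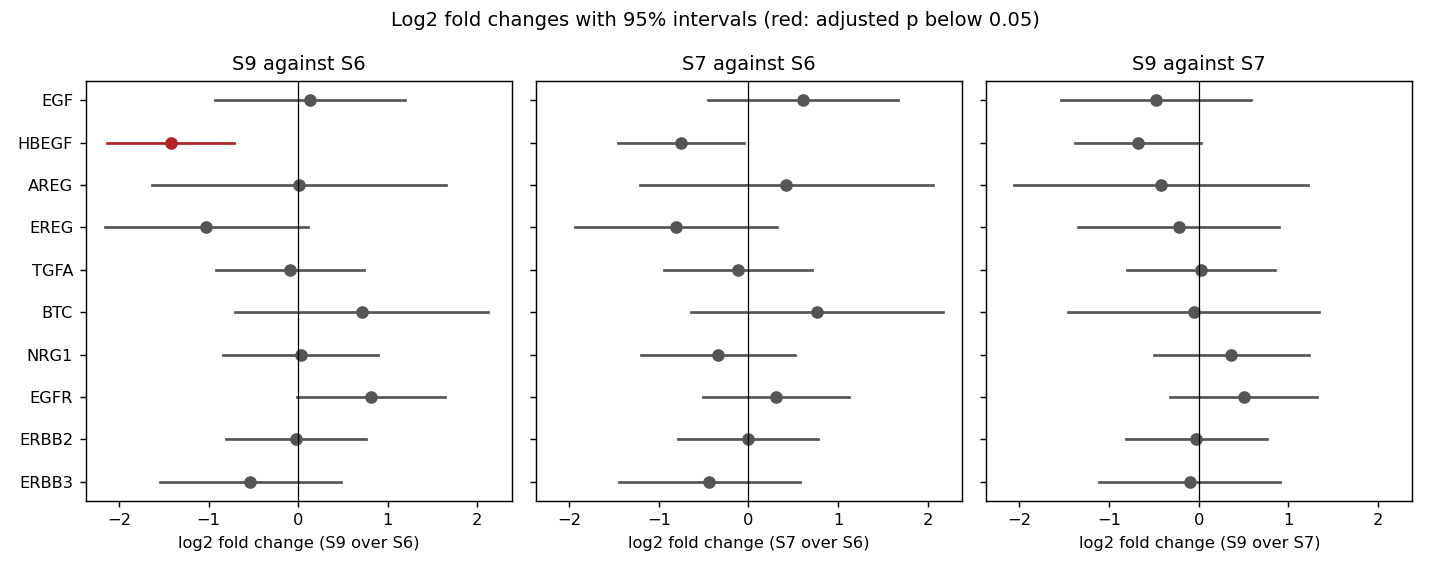
Log2 fold changes of the 10 members (rows) in the 3 comparisons (panels, first group over second), with 95% intervals as lines; red marks an adjusted p below 0.05. HBEGF in S9 against S6 is the only red point, at -1.43, and the intervals of most members are wide, as for AREG from -1.64 to 1.65.

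The 5 other genes of the family were at 6.95 CPM or less in every library. Per length, NRG4 was at 0.668 to 2.665 FPKM, which overlapped the member NRG1 at 0.598 to 1.98 FPKM. NRG2 was at 4.10, 6.95 and 4.18 CPM in S9, at 3.95, 1.67 and 2.15 CPM in S7 and at 4.44, 2.36 and 3.30 CPM in S6, and NRG4 at 1.92 to 4.26 CPM in S9, 2.12 to 2.67 CPM in S7 and 1.18 to 2.87 CPM in S6. NRG2 and NRG4 were not called in any comparison. EPGN, NRG3 and ERBB4 had too few counts to be tested. ERBB4, the other neuregulin receptor, had 2, 16 and 21 counts in S9, 3, 1 and 10 in S7 and 1, 1 and 1 in S6. Summed over the group, 39 counts in S9 stood against 3 in S6, a ratio of 12.4 with an exact 95% interval of 3.95 to 62.9 that covers counting error only and leaves out the spread between libraries, in which S9_1 with its 2 counts was close to S6. EPGN, a further EGFR ligand, had 0 counts in S9, where 3 counts over the group would be 0.0268 CPM, 8 counts in S7 and 7 in S6. NRG3 had 21, 13 and 5 counts in S9, S7 and S6.

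Among the genes of ligand release, a few differed between S9 and S6, in both directions. Of 11 tested, 2 were called higher and 2 lower in S9, against 12.4% of all genes called in either direction (median -0.27 on the log2 scale, against -0.01 over all genes). TIMP3, an inhibitor of ADAM17, was at 179, 182 and 140 CPM in S9 and at 82.9, 36.8 and 43.9 CPM in S6 (a log2 difference of 1.62 ± 0.38 SE, edgeR adjusted p = 0.0315). The iRhoms RHBDF1 and RHBDF2, which carry ADAM17 to the cell surface, moved in opposite directions. RHBDF1 was at 92.3, 81.9 and 82.5 CPM in S9 and at 61.0, 42.6 and 54.3 CPM in S6 (log2 fold change 0.70, edgeR adjusted p = 0.0408). RHBDF2, which in mice is the main iRhom of myeloid cells, was at 18.8, 19.3 and 25.2 CPM in S9 and at 33.4, 55.1 and 42.4 CPM in S6 (log2 fold change -1.05, edgeR adjusted p = 0.0227). ADAM9, a further membrane protease, was lower in S9 (log2 fold change -0.54, edgeR adjusted p = 0.0474). ADAM17 itself, named after its value was seen, was at 70.5, 72.2 and 65.0 CPM in S9 and 78.2, 98.4 and 73.6 CPM in S6 and was not called (log2 fold change -0.27, edgeR adjusted p = 0.227). The count of 4 called genes was 1 without S6_3, 2 without S7_3 or S7_4 and 0 without S6_4, S9_1 or S9_2.

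Of 27 adaptor and relay genes tested, 4 were called higher and 1 lower in S9 than in S6, against the same 12.4% of all genes (median 0.09). PIK3R1, the regulatory subunit of phosphoinositide 3-kinase, was at 369, 303 and 409 CPM in S9 and at 191, 121 and 157 CPM in S6 (a log2 difference of 1.20 ± 0.22 SE, edgeR adjusted p = 0.0207), and PIK3CB, a catalytic subunit of that kinase, was at 17.8, 17.8 and 20.5 CPM in S9 and at 35.3, 27.2 and 26.4 CPM in S6 (-0.66, edgeR adjusted p = 0.0355). The S9 and S6 libraries lay apart for both subunits, in opposite directions, as they did for 35.5% of all genes in either direction. PLCG1, a phospholipase recruited to activated receptors, the phosphatase PTPN11 and the transcription factor STAT5B were higher by 0.62, 0.61 and 0.58 on the log2 scale. The count of 5 was 2 without S6_2, S6_3 or S7_4 and 0 without S6_4, S9_1 or S9_2. Of 18 receptor inhibitors and sorting genes, which include ERRFI1, LRIG1 and CBL, 0 were called by edgeR, DESeq2 or limma-voom, and 3 had an unadjusted p below 0.05, against 31.2% of all genes.

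ERK feedback and early target genes gave 4 lower calls and none higher among 22 tested between S9 and S6, against 6.34% of all genes called lower (median -0.46), with 6 lower and 0 higher at an unadjusted p below 0.05, against 15.8% of all genes lower. DUSP5, a nuclear phosphatase of ERK, was at 6.96, 6.73 and 4.87 CPM in S9, at 8.97, 11 and 9.01 CPM in S7 and at 19.3, 20.8 and 16.7 CPM in S6. The 3 groups did not overlap in DUSP5. Of all genes, 35.5% did not overlap between S9 and S6, 21.2% between S7 and S6 and 17.2% between S9 and S7. The share of genes with all 3 groups apart was not computed. S6_3 was not low for DUSP5 (S9 over S6 by -1.61 ± 0.21 SE on the log2 scale, edgeR adjusted p = 0.0132). DUSP4, a related phosphatase, was at 14.4, 18.2 and 22.4 CPM in S9, at 14.3, 45.1 and 70.2 CPM in S7 and at 149, 46.9 and 108 CPM in S6 (S9 over S6 by -2.47 ± 0.58 SE on the log2 scale, edgeR adjusted p = 0.0326). JUNB, a subunit of the AP-1 factor, and PLAU, the urokinase protease, were lower by -1.40 and -1.09. Other members, such as the ERK phosphatase DUSP6 (-0.48, edgeR adjusted p = 0.311) and the early gene EGR1 (-0.42, edgeR adjusted p = 0.750), both named after their values were seen, were not called. Of the 22 genes tested, 13 had a log2 fold change below 0 and 9 had one above 0. Among the 9 were SPRY4 (0.63, edgeR adjusted p = 0.172) and FOS (0.72, edgeR adjusted p = 0.645), also named after their values were seen. The count of 4 was 2 without S6_2 or S9_4, 1 without S6_4 and 0 without S9_1 or S9_2. Many signals besides EGFR drive these genes, and most of the leukocyte markers given above moved the same way as the called genes. The part of either was not tested.

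**Figure D5:**
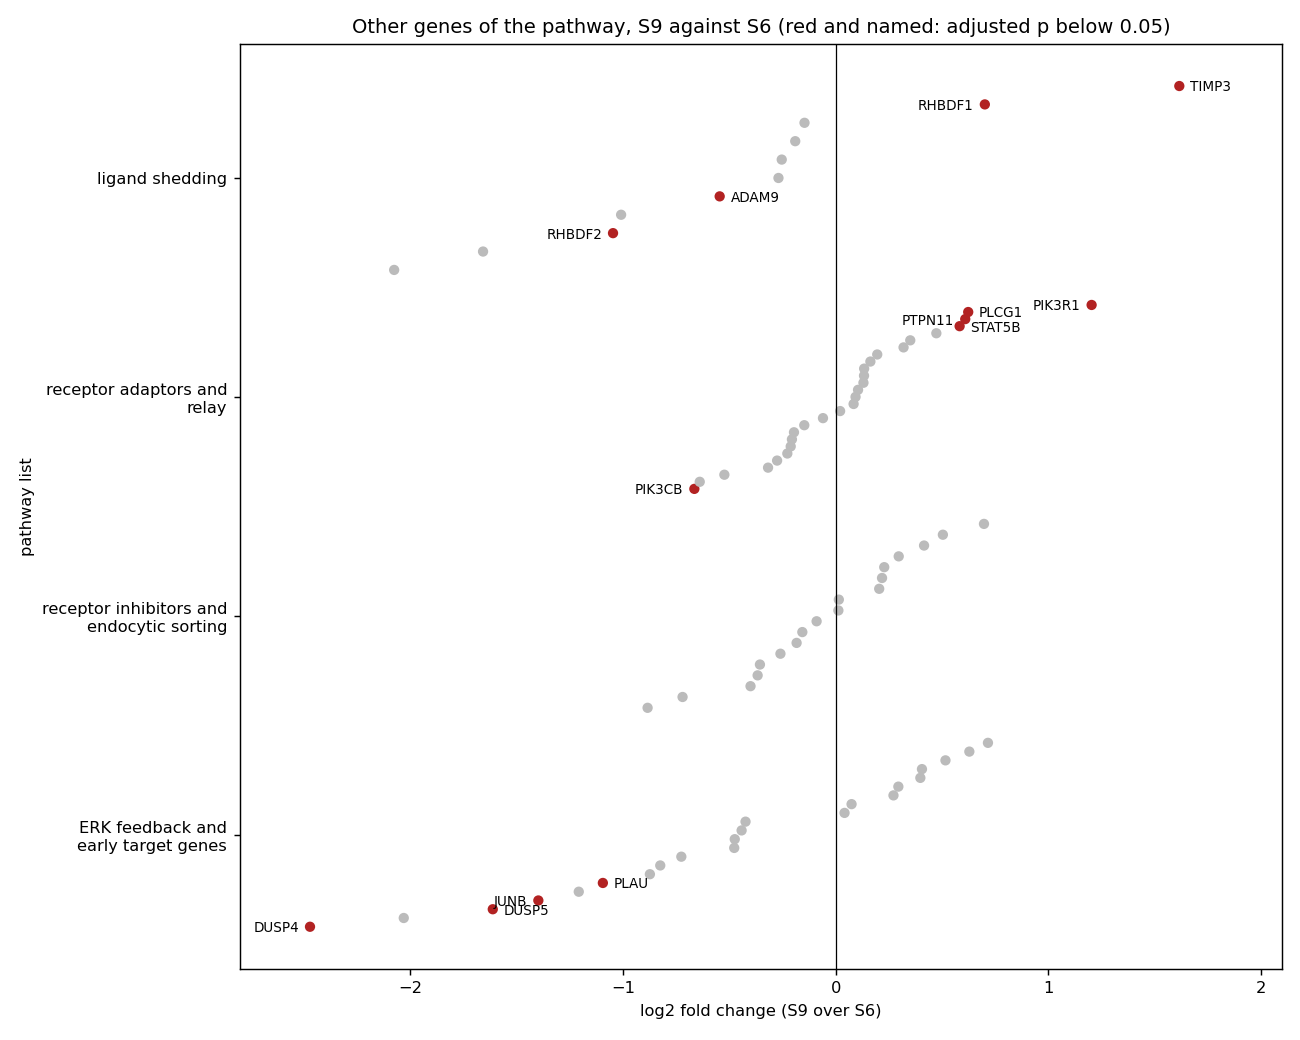
Log2 fold change of S9 over S6 (x axis) for every tested gene of 4 pathway lists (rows, genes spread vertically by rank); red and named genes have an adjusted p below 0.05. The red ERK target genes all lie at -1.09 or below, and the red genes of ligand release lie on both sides of 0.

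Between S7 and S6, and between S9 and S7, edgeR called 0 genes of these 4 lists. For S7 over S6, 4 genes of ligand release, 4 relay genes, 3 inhibitors and 5 target genes had an unadjusted p below 0.05, of 11, 27, 18 and 22 tested, against 17.1% of all genes. DESeq2 called 1, 2, 0 and 3 genes of the lists in that order, against 7.84% of all genes, and limma-voom 0, 0, 0 and 1 (DUSP5), against 1.79%. For S9 over S7 the numbers at an unadjusted p below 0.05 were 1, 3, 1 and 4, against 9.21% of all genes, and DESeq2 and limma-voom called none.

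The genes whose level followed a member most closely over the 9 libraries were listed by Pearson's r of log2 CPM among about 10935 genes with a symbol and a mean of at least 5 CPM. For HBEGF these were the glycosyltransferase gene C1GALT1 (r = 0.982), the RNase gene ZC3H12A (0.980) and YPEL3 (0.977), and r was 0.979 to 0.982 without S6_3. For EGFR they were the nuclear receptor coactivator NCOA1 (0.993), TUBGCP6 (0.988) and KANSL3 (0.985), and for ERBB2 the transporter ABCB6 (0.989), ADGRG1 (0.981) and ANK3 (0.974). Without S6_3 the values for EGFR were 0.942 to 0.975 and those for ERBB2 0.910 to 0.964. ERBB3 was closest to RAB7A (0.985), EREG to MTRR (0.954), AREG to EMP1 (0.954), TGFA to GSTM2 (0.952), EGF to SOX9 (0.930, and 0.823 without S6_3), and BTC to CNST and NRG1 to HOXC11 (both 0.899). Within the family HBEGF and EREG had r = 0.82, ERBB2 and ERBB3 0.81, and EGFR and ERBB2 0.74, while HBEGF and EGFR had r = -0.41. The r values within the family were not computed without S6_3. These values describe 9 libraries that share a group structure and the low S6_3, and the genes outside the family were picked as the closest of all candidates.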

How the data were processed

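RNA of rabbit urethral tissue was extracted with an RNeasy kit and polyadenylated RNA was turned into libraries with a SMARTER kit, per the labels' protocols. The authors deposited whole-number counts of reads per gene, not normalized, and FPKM values of the same libraries. Per the submitters' processing notes, the authors' tools were fastp, HISAT2 and HTSeq. Tool versions, strand setting and genome build were not given in the sources used here, so no coordinates are given and overlapping genes cannot be told apart. Gene IDs of the RefSeq table (mOryCun1.1) gave 515 of 12867 LOC rows a symbol. Groups were taken from the sample titles. No pair of libraries was identical.

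Genes were kept by edgeR's filterByExpr (minimum count 10, minimum total 15), which kept 17102 genes. After TMM scaling, all 9 libraries were fitted in 1 robust quasi-likelihood model (edgeR 4.0.16, R 4.3.3). The model was also run on simulated data, in which the planted differences were larger than that of any member. That run does not cover differences of the members' size. P-values were adjusted by Benjamini-Hochberg over all genes, with a threshold of 0.05. Each standard error was the absolute log2 fold change over the square root of F. Alternatives were other scalings and filters, DESeq2 1.42.0, limma 3.58.1 (voom, and trend on log2(FPKM + 1) and log2(FPKM + 0.1)), a replicate block, the 2 groups alone, a split and a term by mitochondrial counts, a length spline, and each library left out. Named were all members, called genes of the pathway lists (up to 6 per list), all other family genes and the 3 genes most like each member. The members, lists and tests were chosen with earlier results of these data known. Of the 13 marker lists, those printed are the ones set beside a member.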

Additional observations from a re-analysis of the deposited data

How the results depend on the processing

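HBEGF alone was called in S9 against S6, and its log2 fold change was negative under all 22 alternatives (-1.64 to -0.96, adjusted p 0.000263 to 0.156). The count of members called there was 0 with the replicate block (HBEGF adjusted p = 0.127) and 0 among the 6 libraries high in ATP6, and 0 to 1 when 1 library was left out. The last 2 kinds of fit have fewer samples. Whether the replicate numbers pair libraries is not stated and was not settled by the data. Deviations from the group means had r = 0.138, 0.132 and 0.023 in same-numbered S7 and S6 libraries. In same-numbered S9 and S6 libraries r was -0.065 and 0.127, and in those of S9 and S7 it was 0.064 and 0.02. The values 0.138, 0.132 and 0.127 were the highest of all pairs between groups, and pairs with different numbers reached at most 0.103. S6_4 was closer to S7_3 (0.044) than to S7_4 (0.023). Members called stayed at 0 in both other comparisons under each alternative. No other member passed in any setting. Genes called over all were 2115 for S9 against S6, but 3958 by DESeq2, 4061 by limma-voom, 16 with the block, 7 with high mitochondrial counts and 0 to 2076 with a library left out. For S7 against S6 they were 19, but 1358 by DESeq2, 306 by limma-voom, 52 and 37 on log2(FPKM + 1) and log2(FPKM + 0.1), 1 with the block, 4 with the mitochondrial term, 0 with the 2 groups alone or high mitochondrial counts, and 0 to 10 with a library left out. For S9 against S7 they were 0, but 130 by DESeq2, 1 with high mitochondrial counts and 0 to 1 with a library left out. In the pathway lists, called genes in S9 against S6 ranged from 0 to 6 for ligand release, 0 to 7 for relay and 0 to 7 for ERK targets, with 0 under the block and with high mitochondrial counts; these counts were chosen after seeing the data.

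Of 660 values of single members under an alternative, 63 changed sign, all of them for members that were not called, and the cause was not tested. For S9 against S6 the changed values were -0.45 (limma-voom), -0.026 (log2(FPKM + 0.1)), -0.51 (block) and -0.31 (length) for NRG1, 0.13 and 0.14 (log2(FPKM + 1) and log2(FPKM + 0.1)) for ERBB2, -0.22 (block) for EGF, and -0.0065 (block), -0.0027 (2 groups alone), -0.96 (high mitochondrial counts) and -0.063 (mitochondrial term) for AREG. For S7 against S6 ERBB2 was at 4.9e-05 without a filter, 0.10 and 0.11 on log2(FPKM + 1) and log2(FPKM + 0.1), 0.12 with the block, 0.23 with high mitochondrial counts and 0.021 with the mitochondrial term. For S9 against S7 TGFA was at -0.31 (limma-voom), -0.016 (log2(FPKM + 0.1)), -0.64 (high mitochondrial counts), -0.032 (mitochondrial term) and -0.0057 (length), BTC at 0.32 (limma-voom), 0.10 and 0.15 (log2(FPKM + 1) and log2(FPKM + 0.1)), 0.42 (block), 0.055 (mitochondrial term) and 0.016 (length), ERBB2 at 0.032 and 0.032 (both FPKM fits) and NRG1 at -0.22 (block). With 1 library left out, S9 against S6 ran from -0.60 to 0.17 for TGFA, -0.35 to 0.24 for ERBB2, -0.23 to 0.42 for EGF, -0.63 to 1.08 for AREG and -0.31 to 0.38 for NRG1. S7 against S6 ran from -0.33 to 0.26 for ERBB2, -0.26 to 0.10 for TGFA, -0.78 to 0.048 for ERBB3, -0.033 to 0.60 for EGFR and -0.20 to 1.09 for BTC. S9 against S7 ran from -0.40 to 0.91 for BTC, -0.21 to 0.084 for ERBB2, -0.49 to 0.29 for TGFA, -0.43 to 0.27 for EREG and -0.42 to 0.17 for ERBB3. Depth limits AREG, with 14 counts in its lowest library, and ERBB4, EPGN and NRG3 most.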
